A study of Mus musculus with 17 samples.

Results

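The 38 genes described here take long-chain fatty acids into heart muscle cells and break them down in mitochondria and peroxisomes. They were taken by gene symbol from a list of 9 steps: uptake and binding, activation, the carnitine shuttle, control by malonyl-CoA, mitochondrial chain shortening, the handling of unsaturated chains, electron transfer, peroxisomal oxidation, and a pair of further genes (Ucp3 and Angptl4) that respond to fatty acids. All 38 were among the 21798 genes listed, and all 38 were among the 16218 genes tested, which reached 0.5 CPM (counts of a gene per M reads of the library) in at least 3 libraries. Bulk RNA-sequencing was carried out on the apex of the left ventricle of male C57Bl6/J mice, operated on at 7 to 8 weeks of age and killed 3 weeks later. Surgery was either transverse aortic constriction (TAC), which narrows the aorta and makes the left ventricle pump against a higher pressure, or Sham surgery. From week 1 each mouse received 6 oral gavages of 29P, an RGD-mimetic prodrug directed at integrin αvβ3, at 50 μg/kg, or of saline (Veh). With 1 library per mouse, there were 5 libraries from Sham Veh, 3 from TAC Veh, 3 from Sham 29P and 6 from TAC 29P mice. The authors set 3 of 20 libraries aside, among them 1 from a TAC Veh mouse because it grouped with the Sham mice, so the TAC Veh group had already been selected on its transcriptome.

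The adult heart draws most of its energy from long-chain fatty acids. These are taken up with the help of CD36 and transport proteins, held in the cytosol by FABP3, joined to coenzyme A by ACSL1, and passed into mitochondria as carnitine esters, a step that malonyl-CoA holds back. Inside, the beta-oxidation cycle shortens the chain by an acetyl unit in a sequence of dehydrogenation, hydration, dehydrogenation and thiolysis, and the electrons leave through the electron transfer flavoprotein. Peroxisomes shorten very long and branched chains by a similar cycle. A fall in the expression of these genes is a well known feature of the overloaded, hypertrophied heart.

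The estimated depth ran from 14.2 to 23.8 M reads per library and was lowest in the Sham 29P library S14. The 10 cardiomyocyte markers were high throughout, with a summed level of 39534 to 55862 CPM, whereas the adipocyte markers summed to 14.9 to 36.8 CPM. Libraries S18 (TAC 29P), S19 and S20 (Sham Veh) stood apart, because they held atrial transcripts, with Myl7 at 335 to 895 CPM against at most 1.0 CPM in the other 14 libraries. Those 3 libraries also had a run of animal numbers of their own. The animal numbers given in the labels fall into 4 such runs, and no label says whether these are batches. TAC was visible in the 5 pressure overload markers (Nppa, Nppb, Myh7, Acta1, Ankrd1), whose sum was 1520 to 2372 CPM in the Sham libraries other than S19 and S20 (6963 and 4827 CPM), 13110 to 21914 CPM in TAC Veh and 7035 to 17003 CPM in TAC 29P mice. Transcripts of mitochondrial DNA took 29.1 to 40.0% of all CPM in Sham and 23.6 to 29.4% in TAC libraries.

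In hearts without overload, levels spread widely between the members. Divided by the length of the gene's exons, the mean level in Sham Veh mice was highest for Fabp3, with 1655 CPM per kb, followed by Cd36 (418), Acadl (401), Acaa2 (382) and Etfb (365 CPM per kb). The carnitine palmitoyltransferase of the outer mitochondrial membrane is made as a muscle form, Cpt1b, at 91.3 CPM per kb, and a liver form, Cpt1a, at 5.39 CPM per kb. The peroxisomal members occupied the lower end. Their highest level was 19.1 CPM per kb, for Hsd17b4, and Abcd2, a peroxisomal transporter of very long chains, was the lowest of all members with 0.861 CPM per kb. Together the 38 genes held 0.969 to 1.08% of all CPM in TAC Veh libraries, 1.05 to 1.30% in TAC 29P, 1.04 to 1.43% in Sham Veh and 1.13 to 1.38% in Sham 29P libraries.

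The members lie on 15 chromosomes, and only Hadha and Hadhb are close neighbours. These genes encode the alpha and beta subunits of the mitochondrial trifunctional protein, which carries out the later reactions of the cycle on long chains, and they are read away from each other on chromosome 5 of mm10 (GRCm38). Hadha runs from 30118304 to 30155162 on the minus strand and Hadhb from 30155248 to 30184593 on the plus strand in GENCODE vM21. The 85 bases between them, at chr5:30155163-30155247, are shown on the strand of Hadhb because a single short stretch faces both genes, and the pair was chosen for display after their values were seen:

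Hadha to Hadhb: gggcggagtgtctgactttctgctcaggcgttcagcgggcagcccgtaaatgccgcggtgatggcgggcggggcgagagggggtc

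For 31 of the 38 members, windows from 250 bases before to 50 after the start of the gene were taken from RefSeq (GRCm38.p6), giving 35 windows as 3 genes have more than 1 start. No window was held for Abcd2, Acaa2, Hsd17b4, Angptl4, Cpt1b, Crat and Decr1. The search used 4 sets of letters on both strands: the extended half-site TNAAGGTCA bound by oestrogen-related receptors, the direct repeat of AGGTCA, any base and AGGTCA again, the peroxisome proliferator response element, which is AGGNCA followed without a gap by AAGGTCA, and the half-site AGGTCA that lies within the others. The first 3 occurred in none of the 35 windows, against 1.28%, 0.0396% and 0.0274% of all 32851 windows of the same length. The half-site occurred in 7 of the 35 windows, and in 16.3% of all windows. The windows of the members were richer in G and C (median 60.7%, against 52.7% for all windows). Shown are the 250 bases before the start of the 3 genes that hold a half-site there and had the smallest adjusted p after TAC in Veh mice, on the strand of the gene, with the half-site in capitals on whichever strand it lies. Acadm is at chr3:153944644-153944893 (minus strand), Acadvl at chr11:70015429-70015678 (minus strand) and Ucp3 at chr7:100472741-100472990 (plus strand):

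Acadm: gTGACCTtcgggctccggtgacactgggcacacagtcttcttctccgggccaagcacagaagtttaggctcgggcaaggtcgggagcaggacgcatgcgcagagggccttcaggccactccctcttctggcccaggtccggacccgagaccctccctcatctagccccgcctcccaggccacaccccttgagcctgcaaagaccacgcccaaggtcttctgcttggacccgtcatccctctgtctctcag

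Acadvl: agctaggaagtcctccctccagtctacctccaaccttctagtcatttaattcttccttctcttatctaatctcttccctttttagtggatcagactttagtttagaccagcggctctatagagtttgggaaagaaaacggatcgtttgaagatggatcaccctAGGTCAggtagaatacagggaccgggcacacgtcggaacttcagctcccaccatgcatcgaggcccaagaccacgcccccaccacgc

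Ucp3: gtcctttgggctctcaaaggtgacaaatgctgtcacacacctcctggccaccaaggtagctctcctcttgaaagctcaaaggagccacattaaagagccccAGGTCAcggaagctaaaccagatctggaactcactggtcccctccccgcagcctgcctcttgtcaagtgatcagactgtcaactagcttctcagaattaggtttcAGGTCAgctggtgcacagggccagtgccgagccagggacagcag

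The half-site of Acadm begins 249 bases before the start and reads on the opposite strand, that of Acadvl lies 87 bases before the start, and those of Ucp3 lie 149 and 44 bases before it. Of these genes only Acadm passed the adjusted threshold after TAC in Veh mice.

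After TAC in Veh mice, the genes that fell were mostly those of mitochondrial beta-oxidation and of the transfer of its electrons. The difference between steps was not tested. Of the 38 members, 14 fell with an adjusted p of 0.05 or less, against 1.91% of all genes, and 0 rose, against 22.5% of all genes. The test was limma, with Benjamini-Hochberg adjustment over all 16218 genes. At an unadjusted p of 0.05 or less, 17 were lower and 0 higher, and the share of all genes at that threshold is not given. Every member listed for unsaturated chains (4 of 4) and for electron transfer (3 of 3) fell. So did 5 of 9 for mitochondrial chain shortening, 1 of 6 of the carnitine shuttle and 1 of 8 of the peroxisome. By CPM, none of the 3 for uptake and binding, the 1 for activation, the 2 for malonyl-CoA control or the 2 further genes passed. The values of the TAC Veh and Sham Veh libraries did not overlap for 11 members that were lower (2.23% of all genes) and for 1 that was higher, Acaa1a (27.6% of all genes). The median log2 fold change was −0.35 over the members and 0.35 over all genes.

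The fold changes of CPM after TAC are read against that shift. When the libraries were scaled by TMM factors instead, which leave out the most extreme genes, the median of all genes moved from 0.35 to 0.01 and that of the members from −0.35 to −0.68. With TMM factors, 25 members fell (5.51% of all genes) and 0 rose (4.03% of all genes). Fabp3, Cpt1a, Cpt1b, Acacb, Acads, Hsd17b4, Decr2 and Crot, whose mean log2 CPM was higher after TAC, had lower log2 means with these factors. Fewer cells of a type and less RNA per cell cannot be told apart in such bulk samples. Beside the fall of the members, the cardiomyocyte markers had a median log2 fold change of −0.19, with 1 of 10 higher and 1 lower past the adjusted threshold. All 8 fibroblast markers had higher means, 6 of them past the adjusted threshold (summed 2379 to 4109 CPM in TAC Veh, against 969 to 1475 CPM in Sham Veh mice), and all 6 macrophage markers were higher past it. The 4 haemoglobin genes were higher past it too, without overlap (summed 3052 to 4933 CPM in TAC Veh, against 1009 to 2438 CPM in Sham Veh mice). All 6 endothelial markers had higher means, 2 of them past the threshold (summed 905 to 1178 CPM, against 548 to 928 CPM). Skeletal muscle markers summed to 44.3 to 67.4 CPM, against 15.04 to 48.1 CPM. Their part in the fall of the members was not tested.

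**Figure D1:**
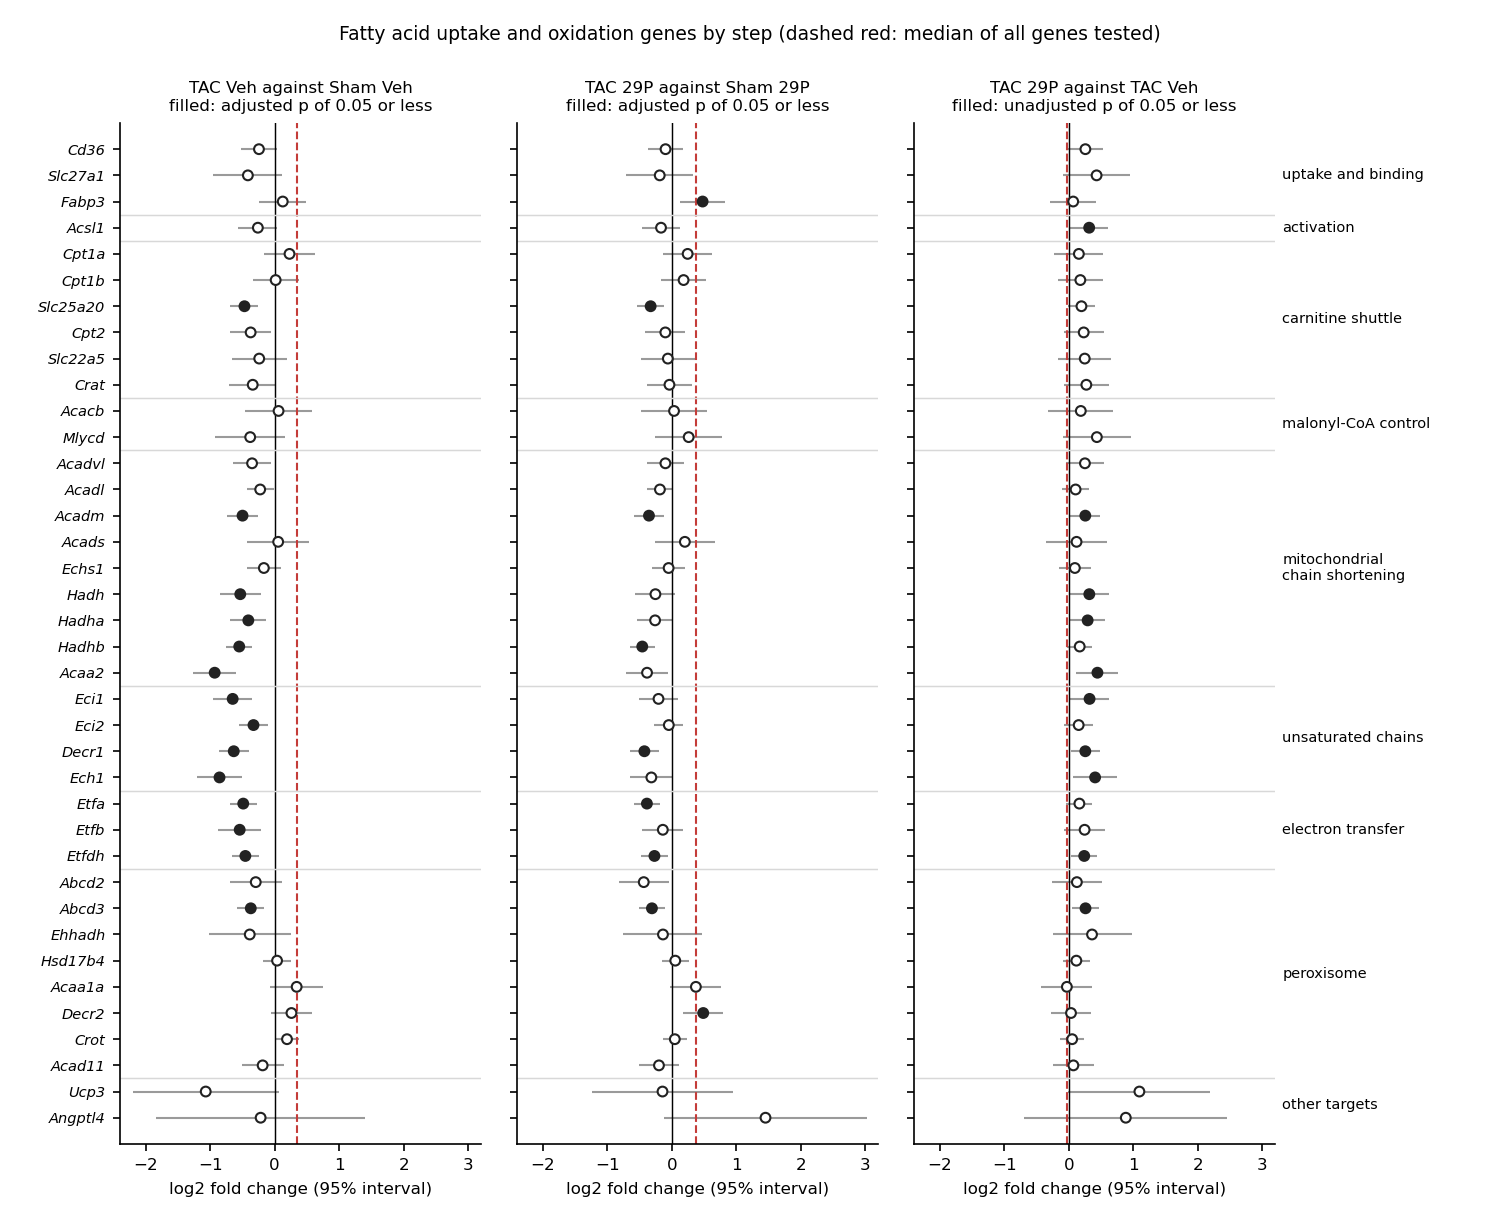
Log2 fold change of each of the 38 members with its 95% interval (limma), grouped by step, for 3 comparisons; filled points are past the threshold named above each panel and the dashed red line is the median of all genes tested. Most members lie left of zero in TAC Veh against Sham Veh mice, where the median of all genes is 0.35, and 37 of 38 lie right of zero in TAC 29P against TAC Veh mice; scaling by TMM factors moves the medians of all genes after TAC to 0.01.

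At the uptake step, Cd36, the main fatty acid translocase of the heart, and Slc27a1, a fatty acid transport protein, had log2 fold changes of −0.24 and −0.42 after TAC in Veh mice, and neither passed (adjusted p = 0.165 and 0.221). With TMM factors both fell, by 0.58 and 0.75 (adjusted p = 0.0248 and 0.0268). Fabp3, which binds fatty acids in the cytosol, lies on chromosome 4 from 130308595 to 130315463, overlapped on the opposite strand by Gm10570 and Zcchc17. In Sham Veh libraries it was at 1477, 1352, 1475, 1043 and 1461 CPM, in Sham 29P at 1437, 760.0 and 1247 CPM, and in TAC Veh at 1507, 1528 and 1387 CPM. In TAC 29P mice it ranged from 1188 to 1686 CPM with a median of 1605 CPM. The low Sham values came from S19 and S14 and the low TAC 29P value from S18, and the groups overlapped. Fabp3 rose after TAC in 29P mice (log2 fold change 0.48, standard error 0.17, adjusted p = 0.0395). Without S14 and the 3 libraries with atrial transcripts this was 0.28 (adjusted p = 0.0738), and with TMM factors 0.11 (adjusted p = 0.631). Acsl1, which activates long-chain fatty acids to acyl-CoA, had log2 fold changes of −0.26 in Veh and −0.17 in 29P mice, neither past the threshold, and with TMM factors it fell in both, by 0.59 and 0.53 (adjusted p = 0.0122 and 0.0197).

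In the carnitine shuttle, 1 of 6 members fell by CPM and 3 of 6 with TMM factors. Slc25a20, the carnitine-acylcarnitine exchanger of the inner membrane, lies on chromosome 9 from 108662088 to 108684641. It was at 154, 146, 148, 117 and 143 CPM in Sham Veh, at 145, 142 and 152 CPM in Sham 29P and at 92.5, 109.6 and 104 CPM in TAC Veh libraries. In TAC 29P mice the range was 111 to 138 CPM and the median 112 CPM. Every TAC Veh library lay below every Sham Veh library and every TAC 29P library, and every TAC 29P library lay below every Sham 29P library. It fell after TAC by 0.47 on the log2 scale in Veh mice (standard error 0.10, adjusted p = 0.00684) and by 0.33 in 29P mice (standard error 0.10, adjusted p = 0.0235). Cpt1b, in contrast, had a mean of 308 ± 60.2 CPM (SD, n = 5) in Sham Veh and 307 ± 30.1 CPM (SD, n = 3) in TAC Veh mice. The 95% interval of its log2 fold change was −0.34 to 0.37, and with TMM factors the value was −0.32 (adjusted p = 0.152). Cpt1b is overlapped on its own strand by Gm44502. Cpt1a (0.23), Cpt2, the inner-membrane transferase (−0.37), Slc22a5, the carnitine transporter of the cell surface (−0.24), and Crat, carnitine acetyltransferase (−0.34), did not pass by CPM. With TMM factors Cpt2 fell by 0.71 (adjusted p = 0.00381) and Crat by 0.67 (adjusted p = 0.00604), while Slc22a5 did not pass. By CPM the same held for Acacb, which makes malonyl-CoA at the mitochondrial surface (0.06), and Mlycd, which degrades it (−0.38, and −0.71 with TMM factors, adjusted p = 0.0495).

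The largest fall among members past the threshold was that of Acaa2, a thiolase of mitochondrial oxidation. Its levels were 611, 557, 600.1, 474 and 654 CPM in Sham Veh, 622, 391 and 635 CPM in Sham 29P and 259, 352 and 303 CPM in TAC Veh libraries. TAC 29P libraries ranged from 349 to 490.1 CPM with a median of 416 CPM. All TAC Veh libraries lay below all Sham Veh libraries, whereas the TAC 29P libraries overlapped the Sham 29P library S14. Acaa2 fell by 0.93 on the log2 scale in Veh mice (standard error 0.16, adjusted p = 0.00186), which is 0.525 of its Sham Veh level, and in all 8 fits that left out 1 library (−1.04 to −0.82). In 29P mice the change was −0.38 (standard error 0.16, adjusted p = 0.0644).

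Hadhb was at 594, 655, 571, 489 and 563 CPM in Sham Veh and at 565, 623 and 623 CPM in Sham 29P libraries. After TAC it was at 367, 412 and 394 CPM in Veh libraries, and at 398 to 473 CPM with a median of 438 CPM in 29P libraries. The groups did not overlap in either comparison. It fell by 0.55 in Veh mice (standard error 0.10, adjusted p = 0.0019) and by 0.46 in 29P mice (standard error 0.09, adjusted p = 0.0039). Its neighbour Hadha fell in Veh mice by 0.41 (adjusted p = 0.0356), and in 29P mice had a change of −0.26 (adjusted p = 0.128). Acadm, the medium-chain dehydrogenase, fell in both by 0.50 and 0.35 (adjusted p = 0.00773 and 0.0248). Hadh, the short-chain hydroxyacyl dehydrogenase, fell in Veh mice by 0.53 (adjusted p = 0.0203). The dehydrogenases for other chain lengths, Acadvl (−0.35), Acadl (−0.23) and Acads (0.05), did not pass, nor did Echs1, the short-chain hydratase (−0.17). With TMM factors Acadvl, Acadl and Echs1 passed and Acads did not.

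The 4 members listed for unsaturated chains all fell after TAC in Veh mice. Decr2, the peroxisomal dienoyl-CoA reductase, was listed with the peroxisome and did not fall (log2 fold change 0.26). Ech1, a dienoyl-CoA isomerase, lies on chromosome 7 from 28825217 to 28832247. Sham Veh libraries held 825, 734, 805, 603 and 833.3 CPM, Sham 29P libraries 809, 465.5 and 868 CPM and TAC Veh libraries 383, 463 and 409 CPM. TAC 29P libraries ranged from 478 to 643 CPM with a median of 553 CPM. The TAC Veh libraries were below all others, and the Sham 29P library S14 lay below all TAC 29P libraries. Ech1 fell by 0.86 in Veh mice (standard error 0.17, adjusted p = 0.00377), and the change in 29P mice was −0.32 (standard error 0.16, adjusted p = 0.134).

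Eci1, an enoyl-CoA isomerase on chromosome 17 from 24426641 to 24439348, was at 192, 196, 186, 146 and 204 CPM in Sham Veh libraries. Sham 29P libraries held 200.05, 128 and 187 CPM and TAC Veh libraries 111, 132 and 109 CPM, and TAC 29P libraries lay between 126 and 172 CPM with a median of 148 CPM. In this gene too the TAC Veh libraries were below every Sham Veh library. Eci1 fell by 0.65 (standard error 0.15, adjusted p = 0.00721), and in 29P mice the change was −0.21 (standard error 0.14, adjusted p = 0.261). Decr1, the dienoyl-CoA reductase of mitochondria, fell in both, by 0.64 and 0.42 (adjusted p = 0.0019 and 0.0104), and Eci2, a further enoyl-CoA isomerase, fell in Veh mice by 0.33 (adjusted p = 0.0383).

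Electron transfer out of the cycle showed falls of similar size for all 3 genes. Etfa and Etfb encode the subunits of the electron transfer flavoprotein, and Etfdh the dehydrogenase that passes its electrons to ubiquinone. Etfb lies on chromosome 7 from 43444083 to 43457800, overlapped on its own strand by Gm45233, Gm44816 and Mir7051. It was at 439, 395, 445, 351 and 495 CPM in Sham Veh, at 460.5, 259 and 453 CPM in Sham 29P and at 279, 280.2 and 311 CPM in TAC Veh libraries. The range in TAC 29P mice was 298 to 377 CPM with a median of 345 CPM. Etfa lies on chromosome 9 from 55454508 to 55512243, and its levels were 483, 538, 469, 470.2 and 509 CPM in Sham Veh, 456, 576 and 519 CPM in Sham 29P and 319.6, 378 and 360.2 CPM in TAC Veh libraries. In TAC 29P mice it ranged from 356 to 438 CPM with a median of 392 CPM. Both subunits were lower in every TAC Veh than in every Sham Veh library, while only Etfa was lower in every TAC 29P than in every Sham 29P library. In Veh mice Etfb fell by 0.54 (standard error 0.16, adjusted p = 0.0222), Etfa by 0.49 (standard error 0.10, adjusted p = 0.00461) and Etfdh by 0.46 (standard error 0.10, adjusted p = 0.00706). In 29P mice Etfa fell by 0.39 (adjusted p = 0.00985) and Etfdh by 0.27 (adjusted p = 0.0451), and the change of Etfb was −0.14 (adjusted p = 0.494).

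**Figure D2:**
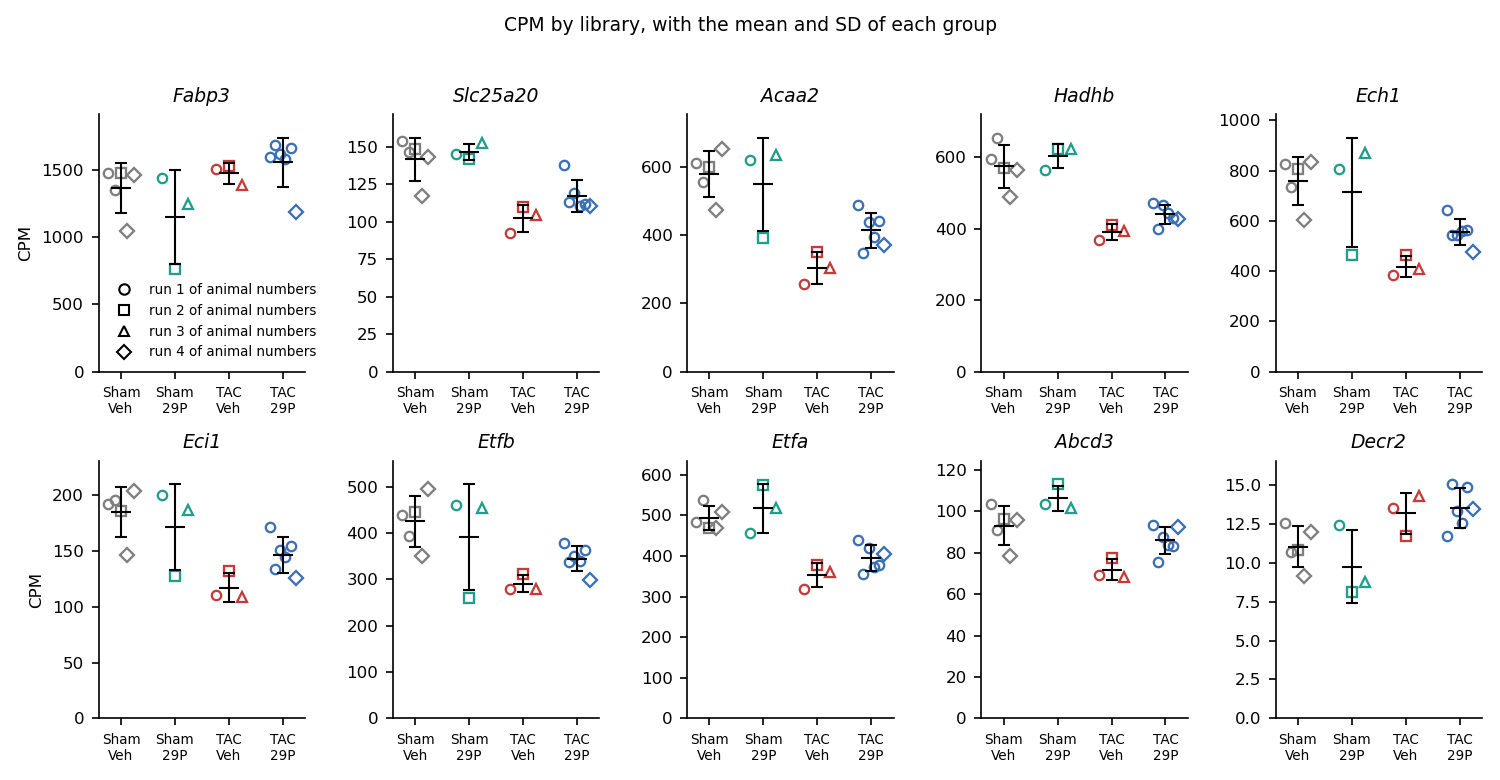
CPM (linear axis from 0) of 10 members in each library of the 4 groups, with the group mean and SD as a bar; symbols mark the run. TAC Veh libraries lie below all Sham Veh libraries for Slc25a20, Acaa2, Hadhb, Ech1, Eci1, Etfb, Etfa and Abcd3, and the single open square in the Sham 29P column, S14, lies far below its group for Fabp3, Acaa2, Ech1, Eci1 and Etfb; scaling by TMM factors turns the mean of Fabp3 and of Decr2 after TAC in Veh mice from higher to lower.

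Of the 8 members listed under the peroxisome, 1 fell after TAC in Veh mice by CPM and 3 with TMM factors. Each member was counted under 1 step only, and the difference from the mitochondrial steps was not tested. Abcd3, which imports long and branched acyl groups into peroxisomes, fell under both scalings. It lies on chromosome 3 from 121758774 to 121815302, overlapped on its own strand by Gm43609 and 4633401B06Rik. Its levels were 104, 91.2, 96.1, 78.2 and 95.9 CPM in Sham Veh, 104, 113 and 102 CPM in Sham 29P and 69.2, 77.7 and 68.3 CPM in TAC Veh libraries, and in TAC 29P mice it ranged from 75.4 to 93.3 CPM with a median of 85.7 CPM. In both comparisons every TAC library lay below every Sham library. Abcd3 fell by 0.37 in Veh mice (standard error 0.10, adjusted p = 0.0174) and by 0.31 in 29P mice (standard error 0.10, adjusted p = 0.0273).

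Decr2, the peroxisomal dienoyl-CoA reductase, went the other way in the deposited values. It lies on chromosome 17 from 26081208 to 26090337 and is expressed at a low level. It was at 12.5, 10.7, 10.8, 9.11 and 11.99 CPM in Sham Veh, at 12.4, 8.11 and 8.74 CPM in Sham 29P and at 13.5, 11.7 and 14.3 CPM in TAC Veh libraries. TAC 29P libraries ranged from 11.7 to 15.04 CPM with a median of 13.4 CPM, so that 1 Sham 29P library, S4, overlapped them. Decr2 rose in 29P mice (log2 fold change 0.49, standard error 0.15, adjusted p = 0.0215). With TMM factors its change was 0.12 in 29P mice (adjusted p = 0.498) and turned from 0.26 to −0.07 in Veh mice. By CPM the log2 fold changes of the other peroxisomal genes after TAC in Veh mice did not pass. They were −0.39 for Ehhadh, the bifunctional enzyme, 0.04 for Hsd17b4, which acts on branched chains, and 0.34 for Acaa1a, the peroxisomal thiolase. For Crot, which prepares shortened chains for export, the value was 0.19, for Acad11, an acyl-CoA dehydrogenase, −0.19 and for Abcd2 −0.29. With TMM factors Abcd2 fell by 0.63 and Acad11 by 0.52 (adjusted p = 0.0499 and 0.0393), and both fell in 29P mice too (adjusted p = 0.0138 and 0.0229). Acaa1a is overlapped on the opposite strand by Slc22a14 and Myd88, and Acad11 by Gm28305, Gm47000 and Gm46999 on its own strand and by Ackr4 on the other. Of the 38 members 21 overlap another annotated gene, taken over the whole span of each gene, introns included. Whether exons are shared was not checked. Where they are, reads cannot be told apart on the same strand, nor on opposite strands if the strand was not used in counting.

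After TAC in 29P mice, 7 members fell (1.12% of all genes) and 2 rose (31.4% of all genes) past the adjusted threshold. The 7 were Slc25a20, Acadm, Hadhb, Decr1, Etfa, Etfdh and Abcd3, each of which had also fallen in Veh mice. These 7 were also the members whose TAC 29P libraries lay wholly below the Sham 29P libraries (1.08% of all genes). The median log2 fold change was −0.14 over the members and 0.37 over all genes. With TMM factors these medians were −0.50 and 0.01. Under that scaling 21 members fell (5.2% of all genes) and 0 rose (5.64% of all genes). At the unadjusted threshold 27 were lower and 0 higher with it, and the share of all genes is not given there. The call rests on few Sham 29P libraries. Without S14, without S15 or without the TAC 29P library S3, 4 members fell, and when the run was a covariate 0 fell past the adjusted threshold and 4 past the unadjusted one. Beside these falls, all 8 fibroblast markers rose past the adjusted threshold (summed 1498 to 3974 CPM in TAC 29P and 812 to 1085 CPM in Sham 29P mice), and 3 of 10 cardiomyocyte markers were higher and 1 lower past it. Their part was not tested. The 2 that rose, Fabp3 and Decr2, became 0 without S14, and 1 without S15 or any 1 of the TAC 29P libraries other than S18.

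In Veh mice the 14 falls became 4 without the TAC Veh library S2 and 9 without S16, while the run as a covariate left 14 and leaving out the 3 libraries with atrial transcripts gave 15. Within run 1, S2 was below both Sham Veh libraries for 29 of 38 members (10.9% of all genes). In run 2, the TAC Veh library S12 was below the Sham Veh library S13 for 30 members (24.8% of all genes) and below the Sham 29P library S14 for 20 (22.7% of all genes). S16 in run 3 was below the Sham 29P library S15 for 33 members (24.1% of all genes). In run 4 the TAC 29P library S18 was below both Sham Veh libraries for 15 members (13.6% of all genes). In all of these comparisons a larger share of the members than of all genes was lower in the TAC library. Those of S12 with S14, of S16 with S15 and of S18 with the Sham Veh libraries also differed in treatment. Surgery and 29P cannot be told apart in them, and each comparison rests on 1 TAC library.

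Within TAC, 29P went with higher means for 37 of 38 members, Acaa1a being the exception (log2 fold change −0.03). At an unadjusted p of 0.05 or less, 10 members rose with 29P (1.05% of all genes) and 0 fell (0.931% of all genes). After adjustment over all genes 0 members passed in limma in either direction, as did 0 of the 16218 genes (0%), and the adjusted p of every member was 1. The median log2 fold change was 0.24 over the members and −0.02 over all genes, and it was 0.27 and 0.00 with TMM factors, where 14 members passed the unadjusted threshold (1.52% of all genes).

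The 10 members were Acsl1 (0.32) for activation, Acaa2 (0.45), Hadh (0.32), Hadha (0.29) and Acadm (0.26) for mitochondrial chain shortening, Ech1 (0.41), Eci1 (0.32) and Decr1 (0.26) for unsaturated chains, Etfdh (0.24) for electron transfer, and Abcd3 (0.26) of the peroxisome, all as log2 fold changes. Acaa2 had the smallest p (limma unadjusted p = 0.0102, exact two-sided permutation p = 0.0357), and the groups overlapped only in that the TAC 29P library S3, at 349 CPM, lay below the TAC Veh library S12, at 352 CPM. Ech1 was past the threshold (standard error 0.16, limma unadjusted p = 0.0209) and had no overlap between the groups (exact two-sided permutation p = 0.0119, and no smaller p is possible with 84 splits), the TAC 29P libraries starting at 478 CPM where the TAC Veh libraries ended at 463 CPM. Non-overlapping higher values were also found for Slc27a1 and Slc25a20, which makes 3 of 38 (0.839% of all genes). For Slc25a20 the change was 0.20 (limma unadjusted p = 0.0648), the TAC Veh libraries ending at 109.6 CPM and the TAC 29P libraries starting at 111 CPM. For Slc27a1 it was 0.43 (limma unadjusted p = 0.0958), with TAC Veh libraries at 42.0, 43.9 and 31.1 CPM and TAC 29P libraries at 46.6 to 62.9 CPM. The 28 other members did not pass, with log2 fold changes from −0.03 (Acaa1a) to 1.096 (Ucp3).

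**Figure D3:**
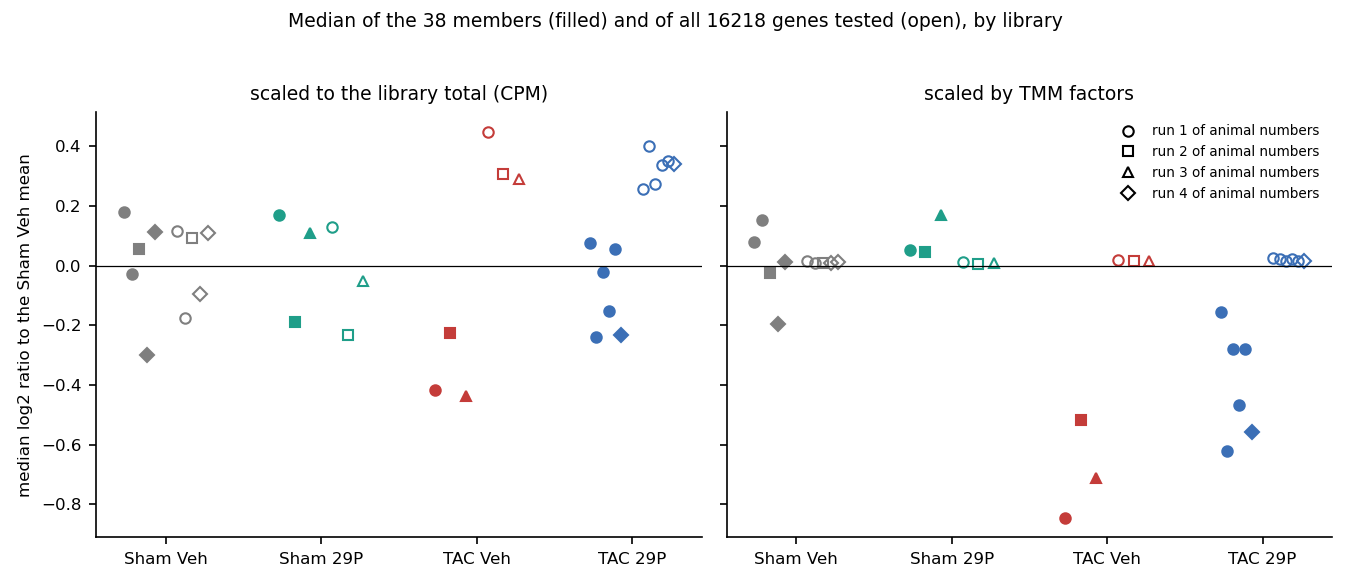
For each library, the median over the 38 members (filled) and over all 16218 genes tested (open) of the log2 ratio to the Sham Veh mean, scaled to the library total (left) or by TMM factors (right); symbols mark the run of animal numbers. By CPM the TAC Veh libraries lie at −0.42, −0.23 and −0.44 and the TAC 29P libraries between −0.24 and 0.08, and by TMM factors, which put the open points near 0 in every library, at −0.85, −0.52 and −0.71 and between −0.62 and −0.16.

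The plot of medians by library gives the spread behind these counts. The median log2 ratio of the 38 members to the Sham Veh mean was −0.42 (S2), −0.23 (S12) and −0.44 (S16) in TAC Veh mice. In TAC 29P mice it was 0.08 (S1), −0.24 (S3), −0.02 (S8), −0.15 (S9), 0.06 (S11) and −0.23 (S18), so that S12 lay near S3 and S18. Only run 1 held both TAC groups, with S2 as its single TAC Veh library. S2 was below all 5 TAC 29P libraries of that run for 30 of 38 members (8.44% of all genes), and above all of them for 0 (32.1% of all genes). The other TAC Veh libraries came from other runs, so run and treatment cannot be fully told apart. With the run as a covariate, 10 members were past the unadjusted threshold, 7 of them among the 10 named above. Acsl1 (unadjusted p = 0.125), Eci1 (0.0951) and Hadha (0.0515) no longer passed, and Hadhb, Slc25a20 and Ucp3 did. Without S2 or without S16 it was 2 members, without the TAC 29P library S1, S8 or S11 it was 3, 4 and 6. It was 15 without the 3 libraries with atrial transcripts and 19 without those and S14. The share of all genes at these settings is not given, so these counts cannot be set against all genes.

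Other transcripts moved with the 29P comparison too. S2 and S3, the lowest libraries of run 1 for the members, had the highest sums of pressure overload markers, 21914 and 17003 CPM, and of fibroblast markers, 4109 and 3974 CPM. Between the TAC groups, the fibroblast sums were 2379 to 4109 CPM in TAC Veh and 1498 to 3974 CPM in TAC 29P mice, with 7 of 8 markers lower on average with 29P and 1 past the unadjusted threshold. All 5 pressure overload markers had lower means with 29P (median log2 fold change −0.49), none past that threshold. The 4 haemoglobin genes were lower past it (median −1.08, summed 3052 to 4933 CPM in TAC Veh and 1027 to 4118 CPM in TAC 29P mice). Cardiomyocyte markers had a median of 0.12, with 9 of 10 higher on average and 0 past the threshold. The part of these transcripts in the change of the members was not tested.

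Ucp3 and Angptl4, which respond to fatty acids in muscle and encode a mitochondrial uncoupling protein and a secreted inhibitor of lipoprotein lipase, varied more between libraries than any other member. Ucp3 was at 79.2, 70.0, 28.4, 15.3 and 41.7 CPM in Sham Veh, at 71.9, 22.2 and 56.4 CPM in Sham 29P, at 27.0, 17.2 and 14.8 CPM in TAC Veh and at 12.5 to 62.9 CPM (median 47.9 CPM) in TAC 29P libraries. The lowest TAC 29P value was that of S18, and the other 5 libraries, all of run 1, held 45.5 CPM or more. Within run 1, S2 (27.0 CPM) was thus below every other library. The change of Ucp3 was −1.07 after TAC in Veh mice (standard error 0.54, adjusted p = 0.142) and 1.096 with 29P within TAC (standard error 0.52, limma unadjusted p = 0.0508, adjusted p = 1). With the run as a covariate these were −1.36 (adjusted p = 0.0135) and 0.72 (unadjusted p = 0.0417), and without the 3 libraries with atrial transcripts −1.51 (adjusted p = 0.0291) and 1.44 (unadjusted p = 0.00142, adjusted p = 1). Ucp3 is overlapped on the opposite strand by Gm10603. Angptl4 ranged from 1.06 to 18.3 CPM over all libraries, and its log2 fold changes of −0.22 after TAC in Veh mice (standard error 0.77) and 0.89 with 29P within TAC (standard error 0.75) were not past either threshold.

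**Figure D4:**
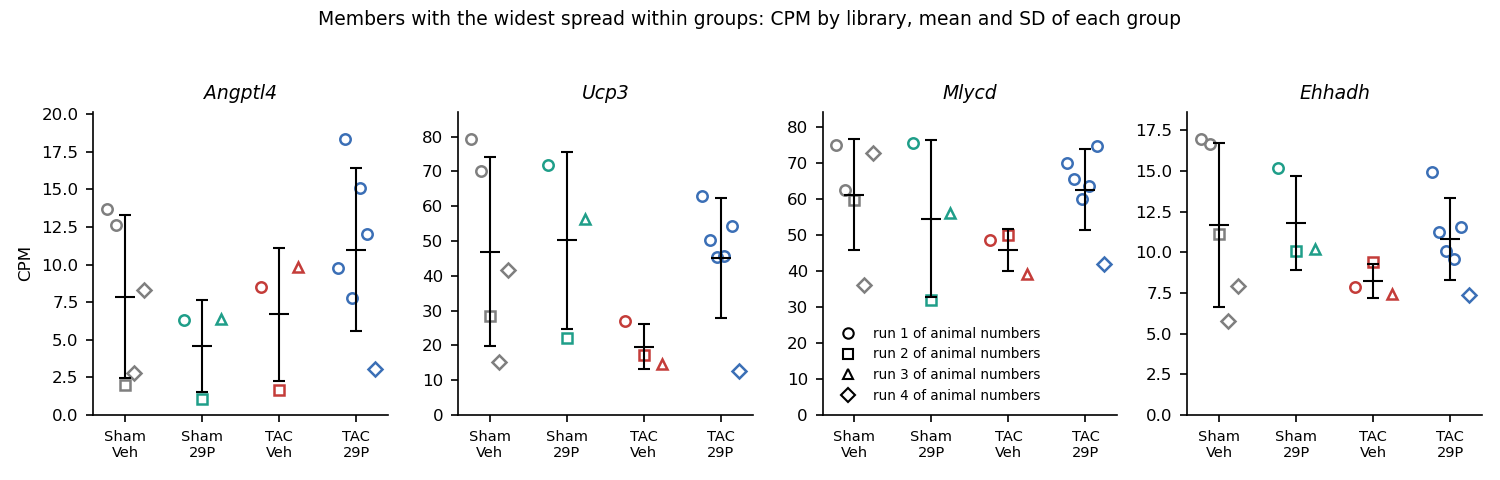
CPM (linear axis from 0) by library of the 4 members with the largest SD of log2 CPM within groups, with the group mean and SD; symbols mark the run of animal numbers. Ucp3 in TAC 29P mice is at 45.5 to 62.9 CPM in the 5 libraries of run 1 and at 12.5 CPM in S18, the only one of run 4.

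In Sham mice, Crot was the only member past the unadjusted threshold with 29P (log2 fold change 0.20, standard error 0.09, limma unadjusted p = 0.0452, adjusted p = 0.66), so 1 of 38 was higher (1.6% of all genes) and 0 lower (5.89% of all genes). Its Sham 29P libraries, at 36.3, 42.9 and 36.4 CPM, lay above the Sham Veh libraries, at 35.5, 33.6, 35.9, 31.2 and 31.7 CPM, and it was the only member of which this was so (0.629% of all genes). After adjustment, 0 members passed in limma in either direction (0% of all genes higher and 0.00617% lower). Without the 3 libraries with atrial transcripts Crot was no longer past the unadjusted threshold. The 1 higher member also became 0 without S6, S19, S20 or S14 alone and 3 without S5, and the 0 lower members became 1 without S19 and 2 without S4. The median log2 fold change was 0.05 over the members and −0.06 over all genes, and with TMM factors 0.11 and 0.00. For Acsl1 the 95% interval, −0.08 to 0.53, held the change of 0.32 seen within TAC. The same was so for Acadm, Hadh, Hadha, Decr1, Etfdh and Abcd3. For Acaa2, Ech1 and Eci1 the interval ended below the change within TAC.

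The difference between the 29P change in TAC and that in Sham mice was tested as an interaction. At the unadjusted threshold the change with 29P was larger in TAC mice for 3 members, Acaa2 (0.55, unadjusted p = 0.0245), Ech1 (0.54, unadjusted p = 0.0316) and Eci1 (0.45, unadjusted p = 0.0409), against 1.98% of all genes, and smaller for 0, against 0.863%. None of the 38 passed after adjustment in limma (adjusted p = 0.998 for these 3, and 0.00617% and 0% of all genes higher and lower). The 3 became 8 without the libraries with atrial transcripts and 5 without those and S14, for which the share of all genes is not given. For each of the 3 the Sham 29P library S14 was the lowest Sham library. The median difference was 0.17 over the members and 0.04 over all genes.

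Other genes of the same pathway gave mixed results. Of 33 listed by function, 31 were in the file and 30 were tested. After TAC in Veh mice 3 of the 30 fell past the adjusted threshold (1.91% of all genes), Acsl6 (−0.68), the acyl-CoA binding protein gene Dbi (−0.54) and Phyh, which starts the breakdown of branched chains (−0.31). In turn 3 rose (22.5% of all genes), Cpt1c (1.47), the brain form of carnitine palmitoyltransferase, which stayed below 6 CPM, Acaca (0.57), the cytosolic acetyl-CoA carboxylase, and Acsl5 (0.48). The median log2 fold change of the 30 was 0.00, against 0.35 for all genes, and with TMM factors 6 fell and 1 rose (5.51% and 4.03% of all genes). After TAC in 29P mice 6 rose (31.4% of all genes), namely Cpt1c, Acot8, Fabp5, Slc27a4, Acsl5 and Acaca, and 1 fell (1.12% of all genes), Lpl, the lipoprotein lipase that frees fatty acids at the vessel wall (−0.59, adjusted p = 0.0135). With TMM factors 10 fell and 1 rose (5.2% and 5.64% of all genes). With 29P within TAC 1 of the 30 was past the unadjusted threshold, where 1.05% of all genes were higher and 0.931% lower. It was Pex11a, a peroxisome membrane protein (0.30, limma unadjusted p = 0.0429, adjusted p = 1). The median of the 30 was 0.05. In Sham mice Fabp5 (−0.46) and Dbi (−0.31), of the 30, were lower with 29P past the unadjusted threshold (5.89% of all genes).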

How the data were processed

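In Partek Flow, the authors aligned the reads with STAR 2.3.7 (genome mm10), and they deposited CPM (reads scaled to the library total) per gene with 0.0001 added. The counting tool, the strand setting and gene filters are not given in the sources used here. Near-whole multiples of 1 read (within 0.02 of a step) made up only 78.7 to 81.7% of values up to 20 steps, so counts were not recovered and no count test was run. Depth was estimated from that step. Limma 3.58.1 (R 4.3.3; lmFit, contrasts.fit, eBayes with a trend) was fitted to log2 of the deposited CPM for 16218 genes with a CPM of at least 0.5 in at least 3 libraries, with 1 mean per group (13 residual degrees of freedom). The threshold was a Benjamini-Hochberg adjusted p of 0.05 after TAC, and the unadjusted p of 0.05 that the study states, with the adjusted p beside it, for 29P. P-values measure the spread between mice. Exact permutation tests were two-sided; the smallest p possible is 0.0119 for 3 against 6 libraries and 0.0179 for 3 against 5. The fit was tested on simulated data.

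Values in every library are given for members past the adjusted threshold with the largest change of their step (at most 2 a step) and for members past the unadjusted threshold with 29P within TAC without overlap, and for Ucp3, Slc27a1 and Crot, chosen after their values were seen. Members, lists and tests were chosen with earlier results of these data known. Marker lists of cardiomyocytes, fibroblasts, endothelial cells, macrophages, adipocytes, atrial cardiomyocytes, red blood cells and skeletal muscle were summed. Alternatives were TMM factors (trims of 30% and 5%), totals without the 16 mitochondrial-encoded genes, median-of-ratios scaling, other filters, constants of 0.1 and 1, array weights, only the groups compared, the run as a covariate, and libraries left out. Coordinates are those of GENCODE vM21, whose starts equal the file's for all 38 members. Promoter windows came from RefSeq. Python 3.11.15 with numpy 2.4.6, pandas 2.3.3 and matplotlib 3.10.9 was used for the rest.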

Additional observations from a re-analysis of the deposited data

Results flagged for a closer look

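In the 2 groups with more than 3 libraries, 6 of the 76 combinations of member and group held a library far from the others (Dixon's test at the 95% level, which chance passes for about 1 group in 20). Of these 6, 5 came from libraries that also held atrial transcripts. Fabp3 was low in the Sham Veh library S19, at 1043 CPM against 1352 to 1477 CPM in the other 4, and low in the TAC 29P library S18, at 1188 CPM against 1580.3 to 1686 CPM in the other 5. Eci2 was low in S19, at 99.7 CPM against 119 to 126 CPM. Cd36 was low in S18, at 1202 CPM against 1497 to 1617 CPM, and so was Ucp3, at 12.5 CPM against 45.5 to 62.9 CPM. The only high value was that of Slc25a20 in the TAC 29P library S1, at 138 CPM against 111 to 119 CPM. S18 and S19 hold most of these values and are both from run 4 of the animal numbers. The part of the atrial transcripts in them was not tested.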

How the results depend on the processing

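The fall after TAC in Veh mice kept its direction for all 14 members in all alternatives run. The 14 became 25 with TMM factors, 23 with median-of-ratios scaling and 28 with TMM factors without the 3 libraries with atrial transcripts and S14, a setting chosen after seeing the data, as were all those without these libraries. With 1 library left out the range was 4 to 16, and 0 to 0 for members that rose. After TAC in 29P mice the 7 that fell became 21 with TMM factors or median-of-ratios scaling, 12 with totals without mitochondrial-encoded genes, 14 with array weights and 0 with the run as a covariate. The range was 4 to 8 with 1 library left out. The 2 that rose became 0 under those 3 scalings, with the run, and without the libraries with atrial transcripts and S14 under either scaling, and 1 with no filter or only the groups compared. Their range was 0 to 3. The 10 higher with 29P within TAC became 22 with array weights, 17 with only the groups compared, and 19 (CPM) or 18 (TMM factors) without the libraries with atrial transcripts and S14, with a range of 2 to 13, and 0 were lower throughout (0 to 0). In Sham mice the 1 higher member became 2 with TMM factors or without mitochondrial-encoded genes, and 0 with a constant of 0.1 or 1, the run, array weights, only the groups compared, and without the libraries with atrial transcripts, with or without S14 (range 0 to 3). A lower member (1) appeared with the run, array weights and without the libraries with atrial transcripts (range 0 to 2). The cause of these moves was not tested, and the share of all genes at each setting is not given here. No paired analysis was run, because the labels pair no mice between the groups. Depth was at least 14.2 M reads, and precision is limited by the 3 libraries each of Sham 29P and TAC Veh mice.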
